A study of Mus musculus with 19 samples.

Results

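Mammary glands of tumor-bearing *MMTV-neu* mice (MG_N, n = 4) were compared with mammary glands of wild-type mice (MG_WT, n = 3) by RNA-seq. All samples whose records gave these groups were used, 7 of the 19 samples of the series, and all 46078 genes of the table were considered. The MG_N mice carried *neu*, the rat form of the receptor tyrosine kinase gene *Erbb2*, under the MMTV promoter, which is active in mammary epithelium. They served as the group with wild-type p53 in stromal fibroblasts, but by the sample records 2 genotypes were pooled: replicate 1 was *MMTV-neu; Fsp-Cre*, with Cre under a fibroblast promoter and no conditional p53 allele, and replicates 2, 3 and 4 were *MMTV-neu; p53wm-R172H/+*, with the conditional allele and no Cre. By the methods of the study, the MG_N glands were taken from tumor-bearing mice and were without malignant lesions, the experimental mice had a mixed FVB/C57/BALB/c background, and the wild-type mice were matched for age. The strain of the wild-type mice, the ages, the stage of the estrous cycle and the preparation dates of the libraries are not given in the sources used here.

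The mouse mammary gland is a branched epithelium embedded in a fat pad. The ducts consist of luminal cells, which respond to hormones and make milk in lactation, and of a basal, contractile layer. Most of the surrounding tissue is white fat, a store of triglyceride that also secretes hormones, together with fibroblasts, vessels, macrophages, lymph nodes and nerves. The immediate-early genes are transcribed within minutes of a stimulus such as a growth factor, a cytokine or mechanical stress, need no new protein synthesis for it, and mostly encode transcription factors.

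The values are reads per gene divided by 1 size factor per library, called normalized counts. Recovered reads per library ranged from 54677315 to 62645459 in MG_WT and from 20899152 to 26373331 in MG_N, so low counts were better resolved in MG_WT. Differences are given as MG_N minus MG_WT on the log2(normalized count + 1) scale, ± the standard error of the limma fit, with p-values adjusted over all genes tested by the Benjamini-Hochberg method. On that scale, the fold change of a gene near 0 comes out too small. A gene was called higher or lower at an adjusted p under 0.05 and at least a 2-fold change. Of 19017 genes tested, 19.1% were called higher and 17.9% lower, 37% in all, and 61.3% had no overlap between MG_N and MG_WT values. The median difference over all genes tested was 0.023. The first principal component of the 500 most variable genes held 87.1% of the variance and separated the groups (MG_WT from -73.6 to -68.11, MG_N from 49.77 to 59.06). No 2 libraries of a group agreed within sampling noise. With the groups went a difference in depth and in the classes of RNA in the libraries, described with the transcript classes, and its part in the other differences was not tested.

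**Figure D1:**
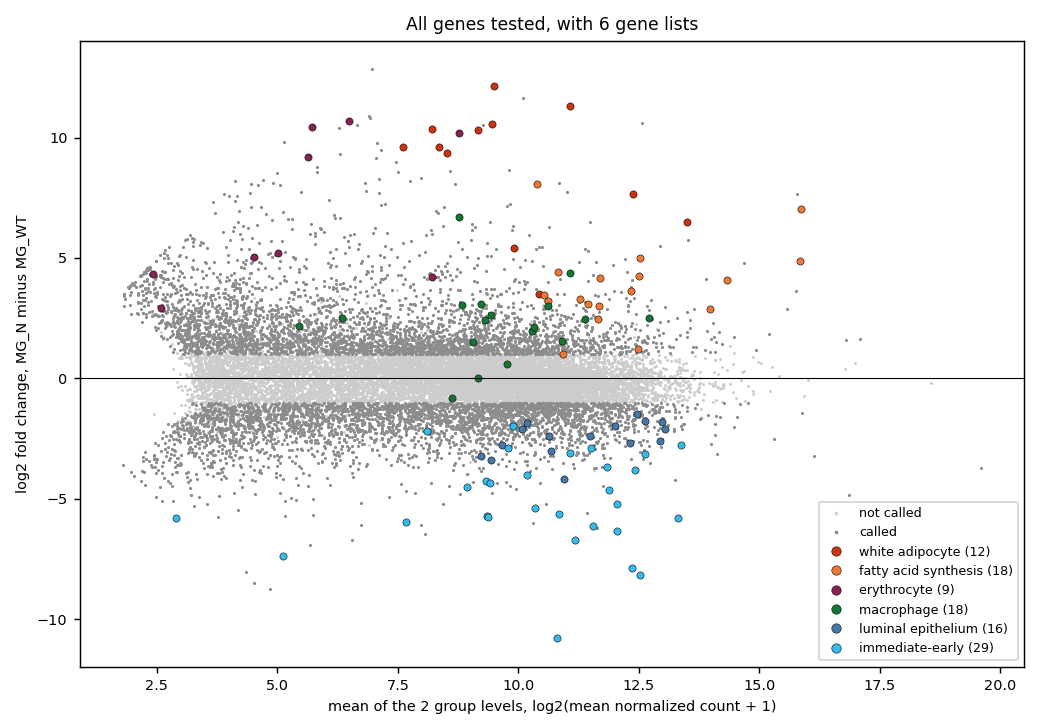
Difference between MG_N and MG_WT (y axis, log2 fold change) against the mean of the 2 group levels (x axis, log2 of the mean normalized count + 1) for each of the 19017 genes tested; grey points are genes, dark grey where called, and colored points are members of 6 lists. The 12 white adipocyte genes lie between 3.52 and 12.15 and the 29 tested immediate-early genes between -10.78 and -1.95.

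The gene lists and their members were chosen with earlier results of these data known. Their counts and ranks are therefore a description, not a test. The counts of every list are to be read beside the shares over all genes tested: 19.1% higher, 17.9% lower and 61.3% without overlap. Of the 42 gene lists, white adipocyte markers had the highest median difference. Most of these markers were close to absent in the glands labelled wild type, and all were abundant in every MG_N gland: all 12 rose, against 19.1% of all genes tested, none of them overlapped between the groups, against 61.3% of all genes without overlap, and the median difference was 9.61, against 0.023 over all genes. The 12 genes together took 0.00691% to 0.0101% of the reads in MG_WT and 1.36% to 1.98% in MG_N. *Lep* (ENSMUSG00000059201, chromosome 6, 29060220 to 29073877), which encodes leptin, the hormone that signals fat stores to the brain, had normalized counts of 7.68, 15.1 and 9.3 in MG_WT and 8741, 12635, 9372 and 5802 in MG_N (9.61 ± 0.29, adjusted p = 4.41e-07). *Plin1* (ENSMUSG00000030546, chromosome 7, 79720218 to 79732903), the coat protein of the adipocyte lipid droplet, had 7.68, 22 and 17.6 in MG_WT and 16550.4, 23465, 17309 and 21089.8 in MG_N (10.29 ± 0.31, adjusted p = 4.41e-07). *Retn*, the adipokine resistin, *Adrb3*, the beta-3 adrenergic receptor of fat, and *Nnat*, neuronatin, were likewise at most 17.5 in MG_WT and at least 4458 in MG_N. The markers *Slc2a4*, *Trarg1*, *Fabp4* and *Plin4* were present in MG_WT and rose by less. *Slc2a4*, the insulin-regulated glucose transporter, had 472, 388 and 355 in MG_WT and 3978, 5055, 5656 and 4024 in MG_N (3.52 ± 0.16, adjusted p = 2.47e-06). *Fabp4*, a fatty acid carrier also found in capillary endothelium, had 1174, 1429 and 1047 in MG_WT and 122858, 100171, 88147 and 128649 in MG_N (6.49 ± 0.18, adjusted p = 3.67e-07). *Trarg1* had 143, 184 and 113 in MG_WT and rose by 5.42, and *Plin4* had 325, 517 and 291 and rose by 7.66. In these bulk samples fewer cells of a type and less RNA per cell cannot be told apart. A gland taken with its fat pad holds adipocytes, and the libraries labelled MG_WT were low in these defining markers of that tissue, with *Adipoq*, the adipocyte hormone adiponectin, at 1.71, 23.4 and 9.82. *Cfd*, the adipocyte serine protease adipsin, had 15.3, 50.3 and 71.3 in MG_WT and 101717, 96111, 77524 and 122912 in MG_N, and *Cidec*, which enlarges lipid droplets, had 9.38, 26.9 and 16.5 in MG_WT and 19958, 27869, 21063 and 37734 in MG_N (10.55 ± 0.34, adjusted p = 5.13e-07).

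Of 12 adipogenic transcription factors, 7 rose and 2 fell, with a median difference of 1.89. *Pparg*, the nuclear receptor required for fat cell formation, had 162, 223 and 137 in MG_WT and 4373, 4308, 3888 and 3492 in MG_N (4.54 ± 0.17, adjusted p = 1.2e-06). *Mlxipl*, which encodes the glucose-sensing factor ChREBP, rose by 4.66, *Klf15* by 4.21, *Nr1h3* by 3.09, *Cebpa* by 2.33, *Ebf2* by 2.19 and *Ebf1*, which also marks B cells, by 1.6. *Cebpb* and *Cebpd*, which act early in fat cell differentiation and are also induced by cytokines, went the other way: *Cebpb* had 1971, 3350.3 and 3238 in MG_WT and 227, 402, 314 and 161 in MG_N (-3.41 ± 0.32, adjusted p = 7.1e-05), and the difference for *Cebpd* was -3.43. Of the 3 that were not called, *Srebf1* differed by 0.48 and *Rxra*, whose groups overlapped, by -0.19.

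All 18 genes of fatty acid and triglyceride synthesis rose, with a median of 3.54, and they took 0.144% to 0.156% of the reads in MG_WT and 3.47% to 7.03% in MG_N. *Scd1* (ENSMUSG00000037071, chromosome 19, 44394455 to 44407879), which encodes the desaturase that makes oleate, had 3725, 7027 and 5029 in MG_WT and 924998, 580142, 766359 and 458124 in MG_N (7.02 ± 0.31, adjusted p = 1.95e-06). *Fasn*, the fatty acid synthase, had 12272, 7695 and 12129.6 in MG_WT and 296510.3, 318586, 495185 and 189163 in MG_N (4.87 ± 0.33, adjusted p = 1.46e-05). *Thrsp*, a lipogenic gene induced by thyroid hormone and carbohydrate, rose by 8.09, *Pcx*, pyruvate carboxylase, by 4.99, and *Agpat2* and *Dgat2*, which build triglyceride, by 4.43 and 4.27. Replicate 3 was the highest MG_N library for 11 of these genes and replicate 4 the lowest for 12. *Elovl6*, which extends fatty acid chains, had 11889, 9052, 34407 and 6649 in MG_N. *Scd2*, a related desaturase of wider expression, was the only member whose groups overlapped, with 3081, 3734 and 3766 in MG_WT and 13375, 9379, 10860 and 3180.3 in MG_N (1.21 ± 0.44, adjusted p = 0.0433), and its call was lost without any 1 library other than MG_N replicate 4 (adjusted p between 0.0828 and 0.123).

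Among 20 genes of lipolysis and the lipid droplet, 15 rose and 2 fell (median 2.92). *Lpl*, the lipase that frees fatty acids from lipoproteins, had 1077, 2011 and 1801 in MG_WT and 103324, 84133, 79661 and 70051 in MG_N (5.73 ± 0.23, adjusted p = 1.46e-06). *Acsl1*, which activates fatty acids, rose by 5.51, *Pde3b*, through which insulin restrains lipolysis, by 5.44, *Lipe*, the hormone-sensitive lipase, by 4.41, and *Pnpla2*, the first lipase of the pathway, by 3. *Adrb1*, a beta-adrenergic receptor, was among those that fell (-1.64). 3 genes of the list, among them *Plin3* (0.51), were not called. *Klb*, the beta-klotho co-receptor through which FGF21 acts on fat, was among the 15 largest rises of all protein-coding genes, with 0.43, 2.44 and 0.52 in MG_WT and 4699.9, 2072, 1787 and 2644 in MG_N (10.38 ± 0.42, adjusted p = 1.45e-06).

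Glycogen and gluconeogenesis genes followed, with 12 of 14 higher and a median of 2.48. *Gys2*, the liver and fat form of glycogen synthase, had 1.28, 2.44 and 1.03 in MG_WT and 2155, 1111, 982 and 634 in MG_N (8.78 ± 0.41, adjusted p = 2.48e-06). *Pck1*, the regulated enzyme of gluconeogenesis and glyceroneogenesis, had 7.25, 31.2 and 18.1 in MG_WT and 62721, 54059.7, 29090.1 and 92628 in MG_N, and *Pygl*, which degrades glycogen in liver and fat, had 207, 235 and 193 in MG_WT and 9951, 8529, 13944 and 6499.6 in MG_N (5.47 ± 0.24, adjusted p = 1.8e-06). The muscle form of glycogen phosphorylase, *Pygm*, was not called (-0.38), and neither was *Fbp1* (0.43). Of the 11 brown fat genes tested, 8 rose (median 1.92), but they varied within MG_N. *Ucp1*, the uncoupling protein of brown and beige fat, had 11.9, 10.2 and 13.9 in MG_WT and 24.2, 783, 86.4 and 813 in MG_N (3.90 ± 1.16, adjusted p = 0.0195), so replicates 2 and 4 were high and replicate 1 was not far above MG_WT. Its call was lost without any 1 of the MG_WT libraries (adjusted p between 0.0521 and 0.0589), and without MG_WT replicate 3 the brown fat list had 5 higher. *Cox8b*, a muscle and brown fat subunit of cytochrome oxidase, had at most 3 reads in every MG_WT library and was at least 432-fold higher in MG_N. *Prdm16*, which specifies brown fat (-0.26), and *Gk*, glycerol kinase (-0.16), were not called. Of the remaining genes with the largest rises, *Car3*, the carbonic anhydrase of fat and muscle, had 69.5, 246 and 172 in MG_WT and 272031, 231134, 200835 and 205015 in MG_N (10.61 ± 0.38, adjusted p = 8.82e-07), the carboxylesterase genes *Ces1d* and *Ces1f* rose by 10.50 and 10.51, and *Tmem45b* rose by 10.81. *Ces1d* and *Ces1f* belong to a family of similar genes, and how reads shared by such genes were counted is not given in the sources used here.

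**Figure D2:**
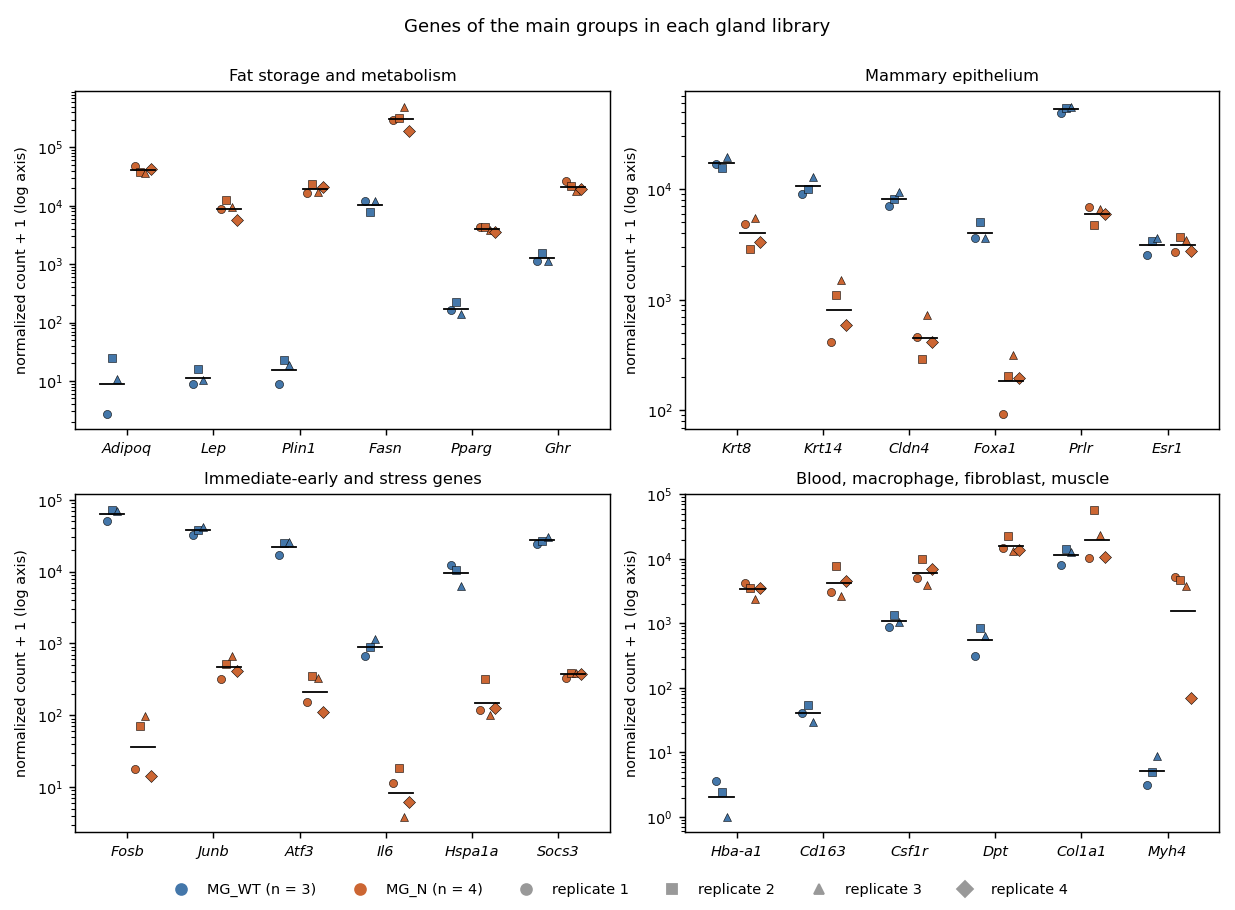
Normalized count + 1 (log axis) of 24 genes in each library, with MG_WT in blue and MG_N in orange; the shape of a point gives the replicate and bars are means of the log2 values. The groups were apart for every gene shown except *Esr1* and *Col1a1*, and the single low MG_N value of *Myh4* is replicate 4.

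Epithelial genes went the other way. Normalized counts are relative to the rest of a library, and the share of fat genes differed between the groups. Fatty acid synthesis genes alone took 0.144% to 0.156% of the reads in MG_WT and 3.47% to 7.03% in MG_N. The part of that difference in the falls of epithelial, lineage and hormone receptor genes was not tested. All 16 luminal markers fell, against 17.9% of all genes tested (median -2.40, none overlapping), as did 15 of 18 basal and myoepithelial markers (median -1.99). *Krt8* (ENSMUSG00000049382, chromosome 15, 101996698 to 102004482), a keratin of simple epithelium, had 16975, 15499 and 19548 in MG_WT and 4809, 2897, 5431 and 3352 in MG_N (-2.11 ± 0.23, adjusted p = 0.000128). *Cldn4*, a tight junction protein, had the largest difference of the luminal list, with 6969, 8156 and 9489.8 in MG_WT and 464, 291, 724 and 418 in MG_N (-4.18 ± 0.28, adjusted p = 1.25e-05), and *Epcam*, the epithelial adhesion molecule, the smallest, with 7748, 8705 and 10566 in MG_WT and 5402, 2053, 4786 and 2027 in MG_N (-1.47 ± 0.37, adjusted p = 0.00965). Of the basal list, *Krt14* had 9047, 10094 and 12949 in MG_WT and 410.1, 1104, 1521 and 590.1 in MG_N (-3.73 ± 0.42, adjusted p = 0.000162), and the differences of *Krt17*, *Lgr6* and *Trp63*, the p63 factor of basal cells, were -3.75, -3.19 and -2.50. Smooth muscle genes of the myoepithelium, which vessels share, differed by less: *Acta2* had 19441, 13576 and 16858 in MG_WT and 2542, 5644, 7458 and 3106 in MG_N (-1.95 ± 0.36, adjusted p = 0.00211), and *Myh11* a difference of -1.29. The other 3, among them *Krt15* (-1.68) and *Pdpn* (-0.68), were not called, and their groups overlapped. Among the MG_N glands, replicate 3 was the highest in both lists, while replicate 1 came next in the luminal list and was the lowest in the basal list (mean log2 levels of 10.3 and 8.21).

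Of 18 transcription factors of the mammary lineages, 14 fell and none rose (median -2.76). *Foxa1*, the pioneer factor of hormone-responsive luminal cells, had 3646, 5038 and 3606 in MG_WT and 91.7, 202, 314 and 196 in MG_N (-4.45 ± 0.37, adjusted p = 3.48e-05). *Gata3*, the regulator of luminal identity, fell as well (-3.73), and so did *Sox9* (-4.35), *Tfap2a* (-4.28), *Runx1* (-3.36) and *Elf5* (-2.08), the factor of the milk lineage. *Esr1*, the estrogen receptor, was an exception, with 2512, 3424 and 3598 in MG_WT and 2700.2, 3720.3, 3435 and 2751 in MG_N (-0.01 ± 0.17, adjusted p = 0.971), so its groups overlapped while those of *Foxa1*, *Gata3* and *Pgr* were apart. *Stat5b*, a mediator of prolactin and growth hormone, was not called either (-0.43).

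Of 14 hormone receptor and target genes tested, 7 fell and 1 rose (median -1.55). *Prlr*, the prolactin receptor, had 49242, 53878 and 55475 in MG_WT and 6948, 4725, 6656 and 5947 in MG_N (-3.14 ± 0.16, adjusted p = 3.08e-06), and *Pgr*, the progesterone receptor, 8508, 3567 and 8943 in MG_WT and 1207, 537, 715 and 787 in MG_N (-3.06 ± 0.37, adjusted p = 0.000238). The single rise was in *Ghr*, the growth hormone receptor, with 1153, 1578 and 1109 in MG_WT and 26201, 21946, 17915 and 19608 in MG_N (4.07 ± 0.17, adjusted p = 1.8e-06). Targets of estrogen and progesterone varied widely among the wild-type glands: *Tnfsf11*, which encodes RANKL, had 1908, 134 and 3658 in MG_WT and 51, 603, 764 and 122 in MG_N, *Areg*, amphiregulin, had 5040, 586 and 2739.6 in MG_WT and 355, 867, 764 and 356 in MG_N, and *Calca* had 4857, 87.4 and 5834 in MG_WT and 33.1, 1576, 5122 and 479.9 in MG_N. MG_WT replicate 2 was the lowest of that group for all 3 genes. *Areg* was called lower (-1.90 ± 0.69, adjusted p = 0.0426) although its groups overlapped, and the call was lost when any library but MG_N replicate 2 or MG_WT replicate 2 was left out (adjusted p between 0.0521 and 0.157). *Tnfsf11* (-2.07) and *Calca* (-1.17) were not called, but without MG_WT replicate 2 *Tnfsf11* was called lower (-3.50, adjusted p = 0.0312), and without MG_N replicate 1 *Calca* differed by 0.21. The junction and keratinization list had 9 of 11 tested members lower and 1 higher, with *Pkp1*, a desmosomal plakophilin, at the largest fall (-3.59) and *Krt79* at the rise (1.83), which was not called without MG_WT replicate 1 (1.17, adjusted p = 0.061).

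*Erbb2* (ENSMUSG00000062312, chromosome 11, 98412470 to 98437716), on which reads of the rat *neu* transgene could have been counted, had 3826, 3855 and 4210.1 in MG_WT and 14718, 1845, 9610 and 2046 in MG_N (0.28 ± 0.71, adjusted p = 0.756). Replicates 1 and 3 of MG_N lay above and replicates 2 and 4 below all 3 wild-type glands. The difference was -0.26 without replicate 1 and -0.05 without replicate 3. Its partners *Erbb3* and *Erbb4* fell, *Erbb3* with 9668, 10033 and 7572 in MG_WT and 2499, 1464, 3145 and 1183 in MG_N (-2.23 ± 0.33, adjusted p = 0.000623) and *Erbb4* by 1.96 on the log2 scale, whereas *Egfr* was not called (0.23). Of the ligands, *Hbegf*, an immediate-early growth factor, had the largest fall (-3.69), followed by *Epgn* (-2.84), whose groups overlapped, and *Nrg1* (-2.51), and *Tgfa* fell by 1.52 on the log2 scale. *Nrg4*, a neuregulin secreted by fat, had 377, 244 and 167 in MG_WT and 1577, 2564, 2699 and 1905 in MG_N (3.10 ± 0.29, adjusted p = 6.92e-05), and *Egf* rose by 1.41. The call of *Epgn* was lost without MG_WT replicate 1 or 3 (adjusted p = 0.0608 and 0.0659). In all, 7 of the 14 ErbB receptor and ligand genes fell and 2 rose (median -1.71).

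Milk protein genes were mixed: 5 of 13 tested rose and 1 fell (median 0.55), against 19.1% and 17.9% of all genes tested. MG_N replicate 1, the only *MMTV-neu; Fsp-Cre* gland, was the highest MG_N library for 11 of the 13. *Csn2*, beta-casein, had 75.9, 12.7 and 61 in MG_WT and 21765, 133, 945 and 299.7 in MG_N (4.57 ± 1.58, adjusted p = 0.0355), and *Csn1s1*, alpha-casein, had 652, 75.2 and 207 in MG_WT and 65332, 1332, 6800.1 and 2464 in MG_N (4.83 ± 1.29, adjusted p = 0.012). *Wap*, whey acidic protein, was 1053 in replicate 1 and at most 4.7 in the other 6 glands, and reached the minimum count in too few samples to be tested. Without replicate 1 the median of the list was -0.78, with 5 members lower. For both casein genes, replicates 2, 3 and 4 also lay above the 3 wild-type glands. *Mfge8*, a milk fat globule protein that ducts make outside lactation, was the member that fell, with 39096, 40903 and 43897 in MG_WT and 14691, 11825, 13261 and 15457 in MG_N (-1.59 ± 0.14, adjusted p = 4.36e-05). *Glycam1* was not called (-3.78), although it was called lower without MG_N replicate 1, 2 or 4 (-4.50, -2.16 and -4.50). The call of *Csn2* was lost without MG_N replicate 3 or any 1 of the MG_WT libraries (adjusted p between 0.0618 and 0.123), and that of *Csn1s1* without MG_WT replicate 2 (adjusted p = 0.0512).

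Of the 42 lists, the immediate-early genes had the lowest median difference. Of 30 genes listed, 29 passed the filter on low counts. All 29 fell, against 17.9% of all genes tested, and none overlapped, against 61.3% of all genes without overlap. The median was -5.19 (-4.64 with *Fosl1* and *Egr4*, at most 3 reads in every MG_N library, set to their bounds). The genes of the list took 1.74% to 2.36% of the reads in MG_WT and 0.0561% to 0.0876% in MG_N. How the glands were handled between collection and RNA extraction is not given in the sources used here, and group and tissue handling cannot be told apart for these genes or for the heat shock and cytokine genes. The same MG_WT libraries were low in the adipocyte markers, globins and mitochondrial rRNAs. *Junb* (ENSMUSG00000052837, chromosome 8, 84974484 to 84978718), a subunit of the AP-1 transcription factor, had 32694, 38006 and 42325 in MG_WT and 322, 517, 666 and 414 in MG_N (-6.34 ± 0.23, adjusted p = 9.75e-07). *Atf3*, a stress-induced repressor, had 17126, 25372 and 25498 in MG_WT and 150.3, 355, 328 and 111 in MG_N (-6.72 ± 0.41, adjusted p = 8.27e-06), and *Nr4a1*, an orphan nuclear receptor induced by many stimuli, had 14372, 26480 and 27951 in MG_WT and 197, 518, 724 and 132 in MG_N (-6.12 ± 0.57, adjusted p = 6.69e-05). The wild-type glands were within about a factor of 2 of each other for these 3 genes, and every one of them was far above every MG_N gland. *Fosl1* was at least 136-fold lower and *Egr4* at least 16.7-fold lower in MG_N. All Fos and Jun family genes of the list fell: the differences were -10.78 for *Fosb*, -8.14 for *Fos*, -5.79 for *Jun*, -4.64 for *Jund* and -3.14 for *Fosl2*. The smallest falls were in *Klf2* (-1.95), a factor of flow-exposed endothelium, and in *Dusp2* (-2.19), a phosphatase of lymphocytes. Genes that shut the response off fell too, with *Zfp36*, which destabilizes cytokine mRNAs, at -5.19, *Dusp1*, a phosphatase of MAP kinases, at -3.68 and *Btg2*, an antiproliferative gene, at -3.79. Within MG_N, replicates 2 and 3 were above replicates 1 and 4 for *Fosb*, *Fos* and *Atf3*.

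Promoters of immediate-early genes are known to bind the serum response factor at CArG boxes and CREB at the cyclic AMP response element. In RefSeq promoters of GRCm38.p6, taken from 250 bases before to 50 after each start, 24 of the 30 genes had an entry. The CArG box was found in those of 3 genes (*Egr2*, *Dusp5* and *Zfp36*), or 12.5% of the 24, in 1.57% of the 11654 protein-coding genes tested that had an entry, and in 1.81% of all 27025 genes with one. The cyclic AMP response element TGACGTCA was found in 3 genes (*Btg2*, *Dusp1* and *Maff*), also 12.5%, against 3.28% of the protein-coding genes tested and 2.03% of all. The AP-1 element TGANTCA was found in 0 of the 24, against 6.82% of the protein-coding genes tested and 8.97% of all. Both strands were searched, and no gene of the 24 held more than 1 of the 3 motifs. Over all called protein-coding genes with an entry, the CArG box was in 2% of those lower and 1.33% of those higher, TGACGTCA in 3.64% and 2.4%, and TGANTCA in 8.11% and 9%. These matches are a description of letters, not of binding sites. Elements outside that window or spelled otherwise were not searched for, and genes without an entry were not searched at all. The stretches of 3 promoters that hold a match, from 200 to 51 bases before the start, are printed so that the motifs can be seen in their context, with the motif in capitals. They lie at chr19:53528945-53529094 on the plus strand (*Dusp5*), at chr17:26508523-26508672 on the minus strand (*Dusp1*) and at chr1:134079206-134079355 on the minus strand (*Btg2*) of GRCm38.p6. In *Dusp5*, 2 CArG boxes lie side by side, the first starting 82 bases before the start, and the stretch overlaps a gene annotated on the other strand.
Dusp5: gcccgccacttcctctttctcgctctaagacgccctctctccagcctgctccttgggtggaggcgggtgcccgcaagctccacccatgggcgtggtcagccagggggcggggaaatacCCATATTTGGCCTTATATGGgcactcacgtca
Dusp1: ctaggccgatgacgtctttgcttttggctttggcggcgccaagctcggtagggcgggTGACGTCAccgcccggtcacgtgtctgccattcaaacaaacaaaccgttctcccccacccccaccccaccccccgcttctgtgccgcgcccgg
Btg2: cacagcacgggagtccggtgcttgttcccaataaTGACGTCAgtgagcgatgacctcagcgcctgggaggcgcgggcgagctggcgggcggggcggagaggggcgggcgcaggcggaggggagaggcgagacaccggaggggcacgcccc
*Dusp5* itself had 1333, 3537 and 3843 in MG_WT and 135, 88.5, 194 and 149 in MG_N (-4.26 ± 0.40, adjusted p = 6.78e-05), *Dusp1* had 10758, 14487 and 12287 in MG_WT and 627, 1848, 1046 and 730.2 in MG_N (-3.68 ± 0.34, adjusted p = 6.25e-05), and *Btg2* had 14629, 26661 and 20446 in MG_WT and 1235, 1547, 1367 and 1649.9 in MG_N (-3.79 ± 0.20, adjusted p = 4.32e-06).

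Inflammatory genes with rapid induction fell as well. Of 21 NF-kB feedback and cytokine genes tested, 18 fell and none rose (median -2.78). *Socs3*, the feedback inhibitor of cytokine signaling, had 24061, 27142 and 30711 in MG_WT and 329, 392, 382 and 378 in MG_N (-6.20 ± 0.12, adjusted p = 1.07e-07). *Il6*, the cytokine interleukin 6, had 671, 881 and 1139.8 in MG_WT and 10.2, 17.2, 2.82 and 5.15 in MG_N (-6.72 ± 0.52, adjusted p = 2.46e-05). *Lif* fell by 4.8, *Ptgs2*, the inducible cyclooxygenase, by 4.68, *Nfkbiz* by 3.73 and *Tnf* by 3.24 on the log2 scale. The other 3, among them *Csf1* (-0.36), the macrophage growth factor, were not called. The chemokines split, with 10 of 21 lower and 5 higher. *Cxcl1*, a neutrophil attractant, had 1534, 1807 and 2585 in MG_WT and 63.7, 24.1, 19.7 and 17.5 in MG_N (-6.10 ± 0.43, adjusted p = 1.69e-05), and *Cxcl2*, *Ccl4* and *Ccl3* fell by 5.69, 5.02 and 4.18. The 5 that rose are known from macrophages and stroma: *Ccl24* (6.03), *Ccl6* (5.39), *Ccl9* (4.79), *Ccl8* (2.70) and *Ccl11* (1.16), the last of which was under 2-fold without MG_WT replicate 1 (0.94) and not called without MG_N replicate 2. *Ccl6* had 54.2, 55.6 and 90.9 in MG_WT and 3739.6, 4816, 1687 and 1912 in MG_N (5.39 ± 0.39, adjusted p = 1.85e-05).

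Of 20 heat shock chaperones, 7 fell and 1 rose (median -0.56). The inducible *Hspa1a* had 12373, 10684 and 6393 in MG_WT and 116, 314, 98.6 and 125 in MG_N (-6.01 ± 0.41, adjusted p = 1.31e-05), and *Hspa1b*, a near-identical copy whose reads the counting could have split, fell by 5.59. *Bag3*, *Dnajb1* and *Hspb1* fell by 2.51, 2.29 and 2.03. The constitutive *Hspa8* (-0.24) and *Hsp90ab1* (-0.30) were not called, and *Hspb8* rose by 1.09, or 0.97 and not called without MG_N replicate 2. The p53 target list had 8 of 22 lower and 2 higher (median -0.65). *Cdkn1a*, the p21 inhibitor of cyclin-dependent kinases, had 1044, 2056 and 1856 in MG_WT and 657, 368, 126 and 202 in MG_N (-2.50 ± 0.53, adjusted p = 0.00403), and *Ccng1* 1734, 1745 and 2054 in MG_WT and 6195, 3724, 3964 and 3789.9 in MG_N (1.23 ± 0.19, adjusted p = 0.000813). *Btg2*, *Plk2* and *Plk3*, which also belong to the rapid stress response, made the largest falls besides *Cdkn1a*, whereas *Mdm2* (-0.51) and *Zmat3* (-0.75) were not called. *Trp53* itself fell by 1.43 on the log2 scale (adjusted p = 0.00071). Of 20 genes of the unfolded protein response 3 fell and 3 rose, against 17.9% and 19.1% of all genes tested. Among them were *Atf4* at -1.52 and *Asns*, a target of that factor, at 1.87. Without MG_WT replicate 2, 1 gene of that list was higher.

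**Figure D3:**
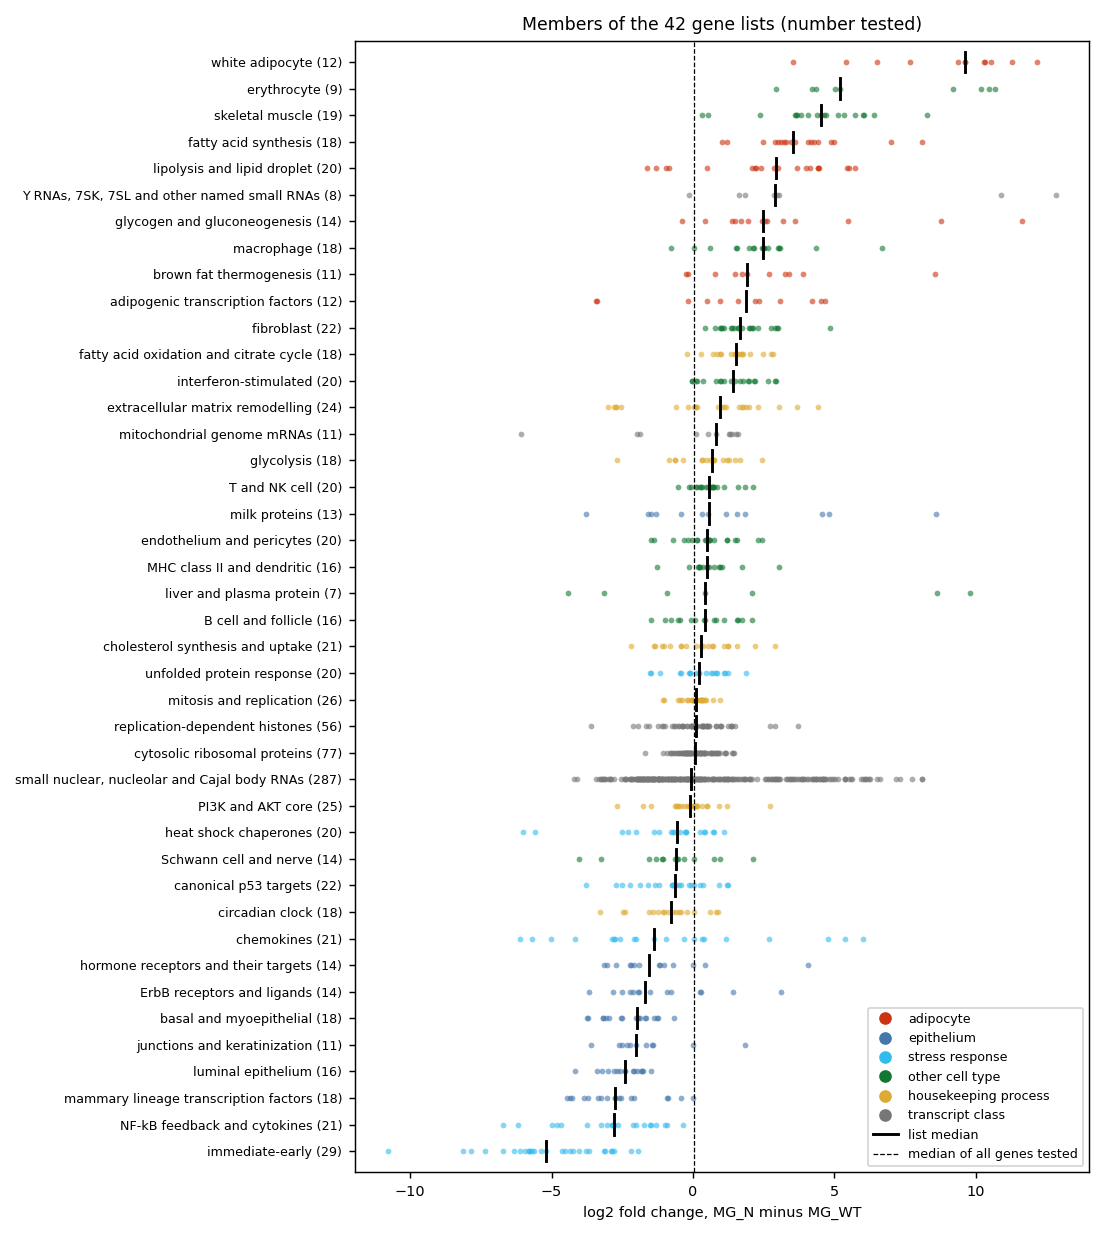
Difference between MG_N and MG_WT (x axis, log2 fold change) of each tested member of the 42 gene lists (rows, with the number tested), colored by the role of the list; the black bar is the list median and the dashed line is the median of all genes tested, 0.023. White adipocyte markers (median 9.61) and immediate-early genes (median -5.19) lie at the ends.

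Globin genes were close to absent in MG_WT. All 9 erythrocyte genes tested rose (median 5.21, or up to 7.28 with 1 library left out). *Hbb-bs*, an adult beta-globin, had 14.5, 9.27 and 11.4 in MG_WT and 14909, 14892, 11288 and 18686 in MG_N (10.20 ± 0.20, adjusted p = 1.07e-07), and *Hba-a1*, alpha-globin, had 2.56, 1.46 and 0 in MG_WT and 4279.6, 3605, 2432 and 3517 in MG_N (10.68 ± 0.42, adjusted p = 1.26e-06). *Hba-a2* and *Hbb-bt*, with at most 3 reads in every MG_WT library, were at least 1355-fold and 888-fold higher. The globin genes come in near-identical pairs, so the values of single copies are uncertain. *Alas2*, the heme synthesis gene of red cell precursors, had 72.1, 77.6 and 54.2 in MG_WT and 1345, 1585, 936 and 1255 in MG_N (4.21 ± 0.21, adjusted p = 3.19e-06).

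Macrophage genes rose in 14 of 18 tested (median 2.46). *Cd163*, a scavenger receptor of tissue-resident macrophages, had 40.5, 52.7 and 28.9 in MG_WT and 3122, 7914, 2675 and 4633 in MG_N (6.69 ± 0.37, adjusted p = 5.41e-06). *Mrc1*, the mannose receptor, had 225, 582 and 627 in MG_WT and 8950.3, 16582, 6193 and 7075 in MG_N (4.37 ± 0.43, adjusted p = 8.93e-05). *Csf1r*, the receptor that macrophages need to survive, rose by 2.49, *Adgre1*, which encodes F4/80, by 2.63 and *Cd68* by 1.53. *Marco* (-0.79) was not called, and its values ranged from 9.19 in replicate 2 to 1410 in replicate 4 of MG_N. The MHC class II list had 2 of 16 higher (median 0.49), *H2-Aa* (1.04) and *Clec9a* (1.72), whereas *Cd74*, the invariant chain, was not called, with 10119, 9621 and 8854 in MG_WT and 11825, 9829, 11621 and 16296 in MG_N (0.36 ± 0.17, adjusted p = 0.109). Without MG_WT replicate 1 that count was 0.

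Of 22 fibroblast genes, 16 rose and none fell (median 1.67). *Dpt*, dermatopontin, a matrix protein of adventitial fibroblasts, had 310.5, 853 and 646 in MG_WT and 15027, 23019, 13468 and 14005 in MG_N (4.84 ± 0.34, adjusted p = 1.61e-05). *Pi16* and *Dpp4*, markers of fibroblast progenitors around fat, rose by 2.99 and 3. *Pdgfra* had 2502, 3817 and 3538 in MG_WT and 9811, 10803, 9109 and 9379 in MG_N (1.59 ± 0.16, adjusted p = 8.83e-05). Collagen I was not called: *Col1a1* had 8057, 14499 and 12599.8 in MG_WT and 10412, 57855, 23290.1 and 10543 in MG_N (0.79 ± 0.58, adjusted p = 0.27), with replicate 2 the highest, while *Col3a1* rose by 2.90. *S100a4*, the gene of fibroblast-specific protein whose promoter drives Fsp-Cre, had 1.71, 4.39 and 4.65 in MG_WT and 24.2, 33.3, 30.1 and 27.8 in MG_N (2.77 ± 0.36, adjusted p = 0.00033). Replicate 2 was the highest MG_N library for 19 of the 22 genes. The matrix remodelling list was mixed, with 10 of 24 higher and 5 lower. *Timp4*, an inhibitor of matrix proteases expressed in fat, rose by 4.42, *Mmp9* by 3.68 and *Lama4*, a laminin of the adipocyte and capillary basement membrane, by 3.04, and *Adamts4*, *Adamts1*, *Thbs1*, *Mmp13* and *Ccn2* fell by 3.02, 2.81, 2.72, 2.71 and 2.55 on the log2 scale.

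In the endothelium and pericyte list 6 of 20 rose and 2 fell (median 0.51), against 19.1% and 17.9% of all genes tested. The endothelial genes *Cdh5* (0.46) and *Emcn* (0.43) were not called. Replicate 2 was the highest MG_N library for 19 of the 20 genes and replicate 2 the highest MG_WT library for all 20. *Lyve1*, of lymphatic vessels and some macrophages, rose by 2.43, whereas *Prox1*, the lymphatic transcription factor, fell by 1.47 and *Vwf*, von Willebrand factor, by 1.4 on the log2 scale. The Schwann cell list had 4 of 14 lower and 1 higher, and 2 of the 4, *Egr2* and *Sox10*, are also in the immediate-early and the mammary lists. The myelin gene *Mbp* (-0.52) was not called.

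Interferon-stimulated genes were higher in 12 of 20 (median 1.41). *Ifit3* had 41.8, 80 and 40.3 in MG_WT and 594, 294, 237 and 596 in MG_N (2.92 ± 0.41, adjusted p = 0.000476), and *Oas2* 49.5, 113 and 55.3 in MG_WT and 927, 691, 154 and 688 in MG_N (2.90 ± 0.61, adjusted p = 0.00385). Within MG_N, replicate 1 was the highest for 16 of the 20 genes and replicate 4 for the other 4. Without MG_WT replicate 1, the count of higher genes was 6. The lymphoid lists had few calls, with 3 of 20 T and NK cell genes and 2 of 16 B cell and follicle genes higher and none lower. Over all genes tested, 19.1% were higher and 17.9% lower, so the counts of higher genes were near the general share. Replicate 4 was the highest MG_N library for all 20 T and NK cell genes. *Cd3g* had 52.5, 52.2 and 31 in MG_WT and 134, 100, 178 and 581 in MG_N (2.11 ± 0.56, adjusted p = 0.012), and *Ighm* 967, 2386 and 2892 in MG_WT and 4531, 4308, 6827 and 29358 in MG_N (2.07 ± 0.68, adjusted p = 0.0297). The calls of *Ighm* without MG_WT replicate 1 or 2 (adjusted p = 0.115 and 0.0568) and of *Cd3g* without MG_WT replicate 3 (adjusted p = 0.0508) were lost. Without those libraries 1 gene of the respective list was higher, and without MG_N replicate 2 the B cell list had 6 higher.

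Skeletal muscle genes rose in 15 of 19 tested (median 4.54), and replicate 4 was the lowest MG_N library for 18 of the 19. *Myh4*, the fast myosin heavy chain, had 2.13, 3.9 and 7.75 in MG_WT and 5192, 4679, 3747 and 69 in MG_N (8.28 ± 1.43, adjusted p = 0.00146), and *Ckm*, muscle creatine kinase, had 2.99, 1.46 and 2.58 in MG_WT and 972, 1425, 824 and 4.12 in MG_N (6.40 ± 1.80, adjusted p = 0.0153). Without replicate 4 these differences were 9.78 and 8.32. The list took 0.00367% to 0.00675% of the reads in MG_WT and 0.0204% to 0.193% in MG_N. The liver and plasma protein list had 3 of 7 tested members higher and 2 lower. *Alb*, albumin, had 0, 0.49 and 0 in MG_WT and 1484, 845, 1162 and 759 in MG_N, at least 742-fold higher, and *Cyp2e1*, a cytochrome of liver and fat, had 35, 69.8 and 28.4 in MG_WT and 19333, 13026, 13097 and 24444 in MG_N (8.64 ± 0.34, adjusted p = 1.25e-06). The liver genes *Ttr*, *Apoa1*, *Apob*, *Apoh* and *Cps1* had at most 9.2 in any of the 7 glands. *Fgb* and *Fgg*, fibrinogen chains, fell by 4.44 and 3.16 on the log2 scale.

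**Figure D4:**
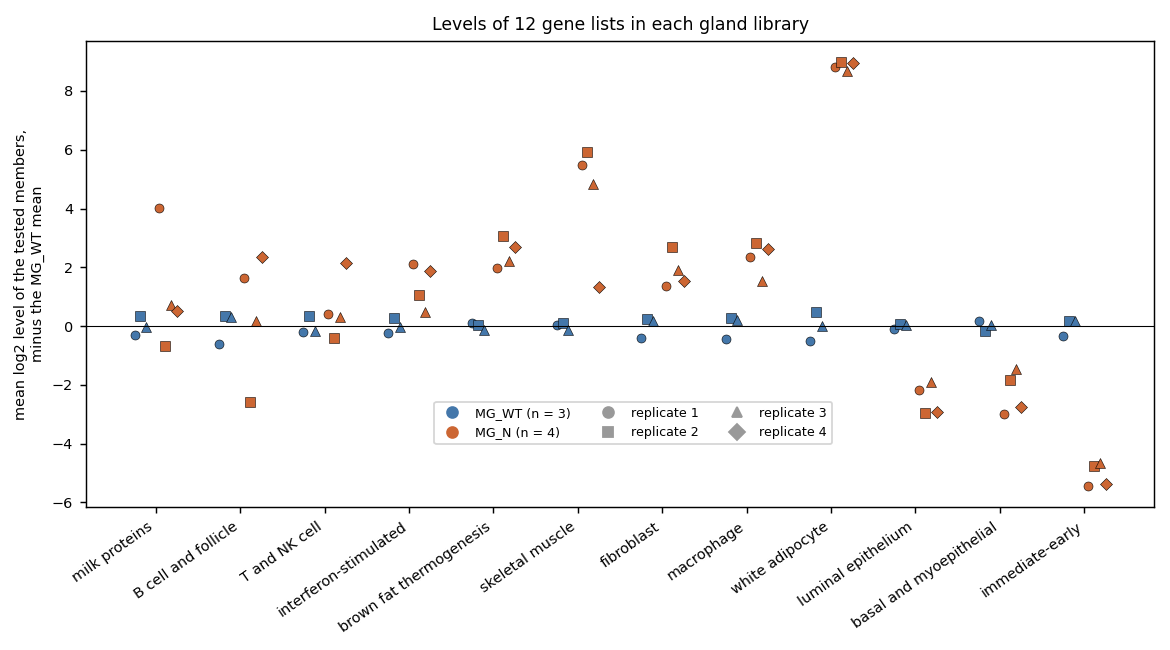
Mean log2 level of the tested members of 12 lists in each library (y axis, log2 units, minus the mean of the 3 MG_WT libraries), with MG_WT in blue and MG_N in orange and the replicate given by the shape. White adipocyte levels are close together within MG_N, whereas milk protein, B cell and skeletal muscle levels spread by more than 4 log2 units.

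Of 18 genes of fatty acid oxidation and the citrate cycle, 12 rose and none fell (median 1.53). *Acadm*, the medium-chain acyl-CoA dehydrogenase, had 1005, 1037 and 941 in MG_WT and 8057, 7230.3, 5852 and 7637 in MG_N (2.84 ± 0.13, adjusted p = 2.14e-06), and *Sdha*, of succinate dehydrogenase, had 2958, 2779 and 3102 in MG_WT and 12714, 11354, 11252 and 12371 in MG_N (2.02 ± 0.10, adjusted p = 3.14e-06). *Cpt1a* (-0.20) and *Acadl* (0.27) were not called. Glycolysis had 6 of 18 higher and 1 lower. *Aldoa*, the muscle and general form of aldolase, rose by 2.44 and *Hk2*, the insulin-responsive hexokinase, by 1.66. *Slc2a1*, the general glucose transporter, was the one that fell, with 2396, 3558 and 3210.3 in MG_WT and 554, 433, 437 and 461 in MG_N (-2.68 ± 0.16, adjusted p = 7.97e-06), in the direction opposite to *Slc2a4*. The cholesterol list was split between 6 higher and 5 lower of 21. *Srebf2*, the regulator of that pathway, fell by 2.21, while *Insig1*, which restrains it, rose by 2.91. Without MG_WT replicate 3 or MG_N replicate 2, the number lower was 3.

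Of 25 core genes of PI3K and AKT signaling, 3 fell, 2 rose and 20 were not called (median -0.09). Over all genes tested, 17.9% fell and 19.1% rose. *Irs2*, an adapter of the insulin receptor, had 7742, 9644 and 10189 in MG_WT and 1018, 1875, 1565 and 1381 in MG_N (-2.68 ± 0.21, adjusted p = 2.54e-05). The FOXO genes *Foxo3* and *Foxo1* fell by 1.76 and 1.47, and *Akt2*, the AKT form of insulin-responsive tissue, rose by 1.21 and *Eif4ebp1*, a repressor of translation under mTOR, by 2.73. *Rheb* (-0.11), *Mtor* (0.15) and *Pik3r1* (-0.20) were not called, and their groups overlapped. Of 26 mitosis and replication genes, 24 were not called and 2, *Mcm6* (-1.06) and *Pcna* (-1.01), fell. Both were just past 2-fold: *Mcm6* was not called without MG_N replicate 1 (-0.89) or MG_WT replicate 1 or 3 (-0.95 and -0.85), nor *Pcna* without MG_N replicate 1, 2 or 4 or MG_WT replicate 3 (-0.99 to -0.92). *Mki67*, the proliferation marker, had 1915, 1008 and 1179 in MG_WT and 2169, 1539, 3756 and 1630.3 in MG_N (0.69 ± 0.34, adjusted p = 0.11). Replicate 3 was the highest MG_N library for 25 of the 26, and replicate 1 the highest MG_WT library for 22. Of 18 circadian clock genes 5 fell and none rose. *Bhlhe40* (-3.29) and *Per1* (-2.41), which stimuli also induce directly, were among the 5. *Dbp*, an output gene of the clock with a strong daily rhythm, had 386, 695 and 288 in MG_WT and 143, 1561, 1720.5 and 859 in MG_N (0.83 ± 0.81, adjusted p = 0.407), and *Arntl*, which peaks at the opposite time, had 616, 1182 and 828 in MG_WT and 1168, 393, 192 and 519 in MG_N (-0.87 ± 0.54, adjusted p = 0.196). Replicate 1 of MG_N was the lowest of its group for *Dbp* and the highest for *Arntl*, and without it *Dbp* was called higher (1.63, adjusted p = 0.00888) and *Arntl* lower (-1.31, adjusted p = 0.0251). Without it 3 clock genes were higher. The time of day of collection is not given in the sources used here.

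The libraries of the 2 groups also differed in the classes of RNA they held. Genes annotated as lincRNAs took 14.4% to 16.5% of the reads in MG_WT and 2.7% to 2.96% in MG_N. In MG_WT most of that came from *Gm26917*, which took 9.81% to 11.5% in MG_WT and 0.774% to 0.977% in MG_N (-3.73 ± 0.34, adjusted p = 5.49e-05), and from *Gm42418* (-4.84 ± 0.35, adjusted p = 1.85e-05). What kind of RNA the reads on these genes came from was not tested. Counted by gene, lincRNAs went the other way. Of 507 tested, 165 were higher and 74 lower (median 0.36), against 19.1% and 17.9% of all genes tested. The mitochondrial ribosomal RNAs took 0.0141% to 0.0628% of the reads in MG_WT and 2.55% to 4.45% in MG_N. *mt-Rnr2*, the large mitochondrial ribosomal RNA, had 8713, 3502 and 1209.6 in MG_WT and 1014979, 542755, 692605 and 564248 in MG_N (7.68 ± 0.59, adjusted p = 2.5e-05), with MG_WT replicate 1 the highest of its group. Small nuclear, nucleolar and Cajal body RNAs took 0.068% to 0.0778% in MG_WT and 0.521% to 1.05% in MG_N. Single ones moved both ways: of 287 tested, 98 were higher and 90 lower (median -0.08), against 19.1% and 17.9% of all genes tested. *Snora78* had 13.2, 12.2 and 7.23 in MG_WT and 1755, 1524, 1627 and 1830.1 in MG_N (7.18 ± 0.22, adjusted p = 4.41e-07), and *Snord70* fell by 3.26. Of the 8 named small RNAs tested, 7 rose: *Rn7sk*, the 7SK RNA, had 61735, 87957 and 81391 in MG_WT and 351260.2, 157182, 201137 and 287219.7 in MG_N (1.64 ± 0.32, adjusted p = 0.0027), *Rmrp* rose by 1.85 and *Rpph1*, the RNA of RNase P, by 2.87. *Terc*, the telomerase RNA, was not called (-0.15).

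**Figure D5:**
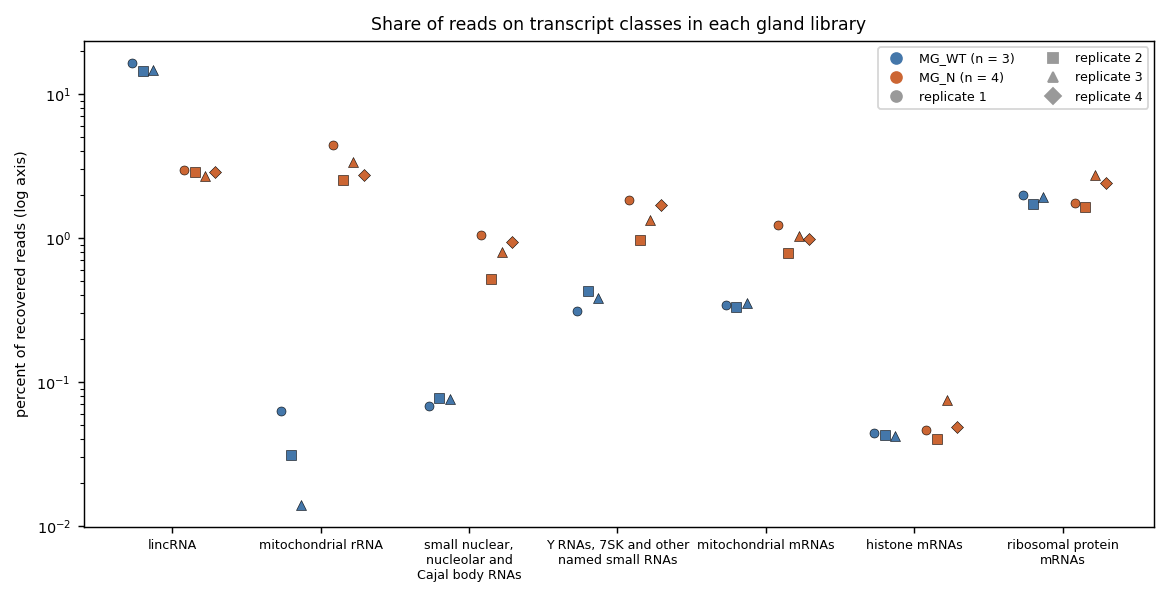
Percent of the recovered reads (y axis, log axis) on 7 transcript classes in each library, with MG_WT in blue and MG_N in orange and the replicate given by the shape. The share on genes annotated as lincRNAs is higher in every MG_WT library, where most of it is from *Gm26917* and *Gm42418*. The shares of mitochondrial and small RNAs are higher in every MG_N library, and the shares of histone and ribosomal protein mRNAs overlap.

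Within the mitochondrial mRNAs, 5 of 11 tested rose and 3 fell. These mRNAs, except *mt-Nd6*, are transcribed together as long precursors. *mt-Co1*, of cytochrome oxidase, had 62848, 62237 and 69552 in MG_WT and 260684, 149128, 200219 and 191243 in MG_N (1.6 ± 0.23, adjusted p = 0.000633), whereas *mt-Nd3*, of complex I, had 781, 809.8 and 1024 in MG_WT and 12.7, 9.19, 16 and 10.3 in MG_N (-6.08 ± 0.25, adjusted p = 1.45e-06), and *mt-Nd6* and *mt-Co3* fell by 1.87 and 1.98. Ribosomal protein genes had 6 of 77 higher and 2 lower (median 0.08), and replication-dependent histone genes, whose mRNAs lack a poly(A) tail, 8 of 56 higher and 8 lower (median 0.09), of which 4 were lower without MG_WT replicate 1 and 3 without MG_N replicate 2. Of nuclear lincRNAs, chosen like *Gm26917* and *mt-Rnr2* after their values were seen, *Malat1* was not called (-0.19). Differences went with transcript properties: among protein-coding genes the median difference ran from 0.38 in the quintile with the shortest exon length to -0.25 in the quintile with the longest. By GC content of the longest transcript it was between -0.01 and 0.14 in the lower quintiles and -0.4 in the quintile with the highest GC, where 924 of 3008 genes were lower and 374 higher. By chromosome, the median was between -0.09 and 0.2 on the autosomes and X. The part of the library make-up, length or GC content in the differences of single genes was not tested, and group and library preparation cannot be told apart in these 7 samples.

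In 16 genes every MG_WT library had at most 3 reads while every MG_N library had at least 100. The difference was highest for *Rny3*, a Y RNA, with 0, 0 and 1.55 in MG_WT and 9680.1, 7591, 13556 and 10021 in MG_N (at least 7135-fold higher). Besides *Hba-a2*, *Hbb-bt*, *Alb* and *Cox8b*, they include *Lctl* (at least 339-fold higher), *Acsm5*, an acyl-CoA synthetase (at least 317-fold), and *Rgs7*, a regulator of G protein signaling (at least 274-fold). In 7 genes the groups were reversed. Besides *Fosl1*, they include *Mfrp*, at least 28.5-fold lower in MG_N, *Gm29292*, at least 34.1-fold lower, and *Fam71a* and *Gpr3*, at least 128-fold and 98.2-fold lower. Among the other largest falls were *C2cd4b*, with 247, 625 and 594 in MG_WT and 11.5, 0, 2.82 and 3.09 in MG_N (-6.92 ± 0.78, adjusted p = 0.000168), and *Dmbt1*, a secreted mucosal defense protein, with 743, 5046 and 1348 in MG_WT and 22.9, 16.1, 3.76 and 74.2 in MG_N (-6.46 ± 0.94, adjusted p = 0.000615).

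The 4 MG_N glands differed most among themselves in immunoglobulin, milk protein and secretory genes. *Ighg3*, an immunoglobulin heavy chain constant gene, had the widest range, 13.06 log2 units, with 231, 1.15, 466 and 18394 in replicates 1 to 4. *Ighv4-2* and *Ighv6-6*, variable segments of the same locus, were also highest in replicate 4, at 798 and 755. *Car6*, the secreted carbonic anhydrase of glandular epithelium, *Scgb2b27*, a secretoglobin, and *2310057J18Rik* were 3738, 990 and 2545 in replicate 1 and at most 21.6 in the other 3. *Lalba*, alpha-lactalbumin, was 7266 in replicate 1 and at most 22.7 in the other MG_N glands, with 375 in MG_WT replicate 2. *Cr2*, the complement receptor of B cells and follicular dendritic cells, was 3438, 5.75, 645 and 2072. Without replicate 2, *Cr2* and *Ighv6-6* were called higher (2.07 and 3.77, adjusted p = 0.0246 and 0.0383). Replicate 1 is the only gland of its genotype, so no test of that genotype could be made.

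Glands of tumor-bearing mice that carried *neu*, Fsp-Cre and the conditional p53 allele (MG_NP, n = 4) were also compared with MG_N. In a direct fit of the 2 groups, 0 of 18563 genes were called by limma, a share of 0%, with 1950 genes at an unadjusted p under 0.05. By edgeR 0 were called as well (2085 at an unadjusted p under 0.05), and by DESeq2 404 were higher and 115 lower in MG_NP (2476). Both groups share the same MG_WT controls, so their differences from MG_WT are not independent.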

How the data were processed

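RNA-seq of mammary glands was analysed from the table the authors deposited, in which the signal per gene is a normalized count, a read count divided by a size factor per library. Per the labels, the authors aligned reads with TopHat2 2.1.1 and Bowtie2 to mouse GRCm38 (mm10), as listed in the submitters' processing notes. The counting tool, the annotation, the use of strand and the handling of reads shared by genes are not given in the sources used here. The labels name a stranded total RNA kit and the methods of the study an mRNA kit, and the 2 accounts were not reconciled. Samples were grouped by their titles, and each sample's own replicate number was used.

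Whole reads were recovered from the steps of the normalized counts for 100% of values (tolerance 0.05). Genes with at least 10 normalized counts in at least 3 samples were tested with limma 3.58.1 (R 4.3.3) on log2(normalized count + 1), on the 7 samples of both groups, with a trend in the prior variance. Genes were called at an adjusted p under 0.05 and at least 2-fold. edgeR 4.0.16 and DESeq2 1.42.0 on the recovered reads were alternatives, as were other pseudocounts, filters, scalings, thinning of reads to the smallest library, a fit over all groups, a replicate block and leaving out each library. The study describes the samples of each gland group as biological replicates, and p-values measure the spread between them.

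The gene lists and members were chosen with earlier results of these data known. Genes named are the 15 largest rises and falls among called, non-overlapping protein-coding genes with a mean of at least 100 in the higher group, members of the lists, *Trp53*, *Erbb2*, the 10 genes with the widest range in MG_N and genes at the floor of 3 reads per library in 1 group. Folds against such a group were computed against 3 reads. Identifiers matched GENCODE vM21 for 98.16% of 46078 genes, which gave names, classes and coordinates (GRCm38). *Ahsp* and *Rn7sl1* had no match, and *Ccl19* and *Ccl21a*, with 2 identifiers each, were left out. Promoters were from RefSeq. Most members of the longer lists enter only the counts and medians, and a few results are not reported here.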

Additional observations from a re-analysis of the deposited data

Results flagged for a closer look

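Within MG_N, 1 of 4 libraries stood apart by Dixon's gap test for 10 of the 247 named genes examined and for 1 of the 42 lists. Chance flags about 1 in 20 groups. However, some genes were named for their spread in MG_N or after their values were seen, *Cd177* and *Slc5a7* among them. The count of 10 can therefore not be set against chance. The muscle genes *Ckm* (ratio 0.903; 972, 1425, 824 and 4.12 normalized counts in replicates 1 to 4) and *Myh4* (0.924; 5192, 4679, 3747 and 69) were low in replicate 4. The endothelium and pericyte list was high in replicate 2 (0.902; mean log2 levels of 10.33, 11.07, 10.29 and 10.25), as was *Csf1* (0.912; 1765, 3570, 1722 and 1649), the growth factor of macrophages. *Ccng1*, a p53 target, was high in replicate 1 (0.877; 6195, 3724, 3964 and 3790). The interferon-induced *Oas2* was low in replicate 3 (0.833; 927, 691, 154 and 688), and so was *Malat1* (0.901; 376445, 378891, 312268 and 371734). *Fam71a* and *Gpr3* had a single read in replicates 3 and 4 and none in the others (ratio of 1 for both). *Slc5a7*, a choline transporter, was low in replicate 4 (0.923; 265, 187, 239 and 2.06), and *Cd177*, a neutrophil surface protein, was high in replicate 1 (0.931; 2440.4, 12.6, 13.2 and 18.5). Causes were not tested.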

How the results depend on the processing

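With 1 library left out, the counts ran from 3432 to 3640 genes higher and from 3114 to 3434 lower. Without a fold threshold 5697 were higher and 5544 lower, and with at least 4-fold 1575 and 1239. edgeR called 3728 and 3409, DESeq2 3812 and 3410. Across scalings the median over all genes ran from -0.027 to 0.083. The first component held 76.5% of the variance over all genes tested. For MG_NP against MG_N, DESeq2 called 519 genes and edgeR 0, tools added after the data were seen, as was leaving libraries out of the components. The replicate numbers do not pair the samples: deviations of same-numbered libraries correlated at -0.14, -0.026 and -0.024. No library correlated best with the library of its own number. A fit with the replicate number as a block called 3511 higher and 3248 lower. MG_N replicate 4 has no partner in that block fit and does not bear on its estimates.

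Some list medians turned sign. The B cell median was -0.29 in the block fit and -0.29 to 1.47 with 1 library left out, ribosomal proteins -0.01 in the block fit and -0.02 to 0.17 with 1 left out, mitosis -0.15 to 0.37, histones -0.12 to 0.25 and milk proteins -0.78 to 1.68. Small nuclear and nucleolar RNAs had a median of 3.32 among genes with a mean of at least 50 and 0.15 after thinning. Of uncalled genes, *Esr1* was 0.05 with upper-quartile scaling and in the block fit and -0.17 to 0.09 with 1 library left out, *Marco* was 0.76 in edgeR, 0.77 in DESeq2 and -1.86 to 0.51, *Terc* was 0.15 in edgeR and DESeq2 and -0.64 to 0.22 with 1 left out, *Pygm* was 0.32 in the block fit and -0.73 to 0.32, *Ighg3* was -1.28 in the block fit and -1.28 to 3.07, and *Cr2* was -0.69 in the block fit and -0.93 to 2.07. With 1 library left out, *Erbb2* was -0.26 to 0.74, *Lalba* -1.72 to 2.09, *Fbp1* -0.21 to 1.48 and *Calca* -3.14 to 0.21. Called values that moved by over 1.5-fold with the call kept included, without 1 MG_WT library, *Adipoq* (11.29 without replicate 1, 12.88 without replicate 2), *Cfd* (10.66 without replicate 1), *Ccl24* (5.35 without replicate 1), *Fgb* (-5.34 and -3.39 without replicates 1 and 2), *Dmbt1* (-7.06 and -5.68) and *mt-Rnr2* (8.37 and 6.95 without replicates 1 and 3), and, without 1 MG_N library, *Ccl3* (-3.56 without replicate 3), *C2cd4b* (-6.29 without replicate 2), *Dmbt1* (-5.78 and -7.10 without replicates 3 and 4), *Epgn* (-3.49 without replicate 1), *Ighm* (1.44 without replicate 4), *Csn1s1* (3.69 and 5.56 without replicates 1 and 2), *Csn2* (3.06 and 5.51) and *Ucp1* (4.88 without replicate 1, 3.23 and 3.21 without 2 or 4). Causes were not tested. The lower depth of MG_N limits counts of genes near 0 there.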

Other observations

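Some genes outside the lists, chosen after their values were seen, also set MG_N glands apart. *Rag1*, a recombinase of developing lymphocytes, had 0.43, 1.95 and 1.55 normalized counts in MG_WT and 112, 1825, 88.3 and 8.24 in MG_N (adjusted p = 0.0108 in limma). *Cd177*, a neutrophil surface protein, was 2440.4 in MG_N replicate 1 and at most 18.5 in the other 6 glands, and was not called (adjusted p = 0.335). *Slc5a7*, a choline transporter of cholinergic neurons, had 604, 2562 and 1119 in MG_WT and 265, 187, 239 and 2.06 in MG_N (-3.95, adjusted p = 0.0501). *Slc7a10*, an amino acid transporter of white adipocytes, and *Orm1*, an acute phase protein, were among the next largest rises.

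Immunoglobulin constant genes took 0.0166% to 0.0325% of the reads in MG_WT and 0.154%, 0.0293%, 0.0705% and 0.508% in MG_N replicates 1 to 4, with 4 of the 12 tested higher and none lower. RNAs annotated as sense intronic were lower in 66 of 173 tested and higher in 17 (median -0.60), and miRNA genes lower in 54 of 137 and higher in 26 (median -0.61). The share of reads on miRNA genes did not follow that count. It was 0.0518%, 0.041% and 0.0233% in MG_WT and 0.0972%, 0.136%, 0.109% and 0.0201% in MG_N replicates 1 to 4.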
